A study of Rattus norvegicus with 12 samples.

Results

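Gfap, S100b and Vim, 3 genes widely used to mark glial cells and their reaction to injury, were followed across 4 hormone treatments of the rat trigeminal ganglion. They were taken by their Ensembl identifiers (ENSRNOG00000002919 for Gfap, ENSRNOG00000001295 for S100b and ENSRNOG00000018087 for Vim) from 32545 genes in the deposited files, and all 3 passed the filter on low values, which left 14781 genes for testing. Total RNA of the right trigeminal ganglion of female Sprague Dawley rats was sequenced in 12 libraries, 3 for each of 4 capsule groups, after 1 week with the implant. Capsules of the vehicle group held cholesterol only. The other groups received estradiol (E2), the main ovarian estrogen, in capsules of 5%, 20% or 40% E2. The labels equate 5% with diestrus, a low-estrogen phase of the cycle, and 20% with proestrus, when estrogen peaks, and call 40% therapeutic. Neither the age of the rats nor whether they still had ovaries is given in the sources used here, and the labels do not tie each library to an animal of its own, so the p-values reflect how far these libraries lie apart, which may be partly technical.

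The neurons of the trigeminal ganglion serve touch, temperature and pain in the face and the meninges. Each cell body is wrapped by satellite glial cells, and Schwann cells accompany the axons. Gfap encodes glial fibrillary acidic protein, an intermediate filament protein of astrocytes that satellite glia make at low levels and raise after nerve injury or inflammation. Vim encodes vimentin, the intermediate filament protein of satellite glia and Schwann cells, which fibroblasts, endothelial cells and macrophages also make. S100b encodes a small calcium-binding protein of satellite glia and Schwann cells that part of the sensory neurons also make. The comparisons ask whether the dose of E2 carried for 1 week went with another level of these transcripts in the whole ganglion. In such bulk tissue, fewer cells of a type and less RNA per cell cannot be told apart.

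E2 acts on transcription chiefly through its receptors, which bind the estrogen response element, an inverted repeat of GGTCA, so the stretch before each gene's start is shown with the motif letters that were found there. The 250 bases before the start were taken from RefSeq (assembly GRCr8), which held all 3 genes. For S100b, 78 of the 250 bases lie inside the annotated span of the gene, and only the 172 bases outside it are printed. The window is chr10:88361662-88361911 (minus strand) for Gfap, whose gene spans chr10:88352987-88361661. The printed stretch is chr20:12381160-12381331 (minus strand) for S100b, whose gene spans chr20:12372345-12381159, and chr17:81577011-81577260 (plus strand) for Vim, whose gene spans chr17:81577261-81585746. Each sequence reads 5′ to 3′ towards the gene, with motif matches on either strand in capitals.
Gfap: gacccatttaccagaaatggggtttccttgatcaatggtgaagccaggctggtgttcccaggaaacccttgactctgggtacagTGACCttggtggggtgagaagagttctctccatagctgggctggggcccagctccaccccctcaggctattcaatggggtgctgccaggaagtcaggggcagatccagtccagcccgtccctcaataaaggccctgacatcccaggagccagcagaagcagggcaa
S100b: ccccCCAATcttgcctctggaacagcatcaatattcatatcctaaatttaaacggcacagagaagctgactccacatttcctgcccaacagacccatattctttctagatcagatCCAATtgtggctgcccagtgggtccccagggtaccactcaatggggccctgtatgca
Vim: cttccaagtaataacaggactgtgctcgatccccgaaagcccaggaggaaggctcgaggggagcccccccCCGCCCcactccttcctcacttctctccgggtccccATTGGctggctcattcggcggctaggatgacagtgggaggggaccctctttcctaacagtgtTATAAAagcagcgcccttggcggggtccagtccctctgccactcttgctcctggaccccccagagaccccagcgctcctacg

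In Gfap the capitals mark an estrogen response element half-site from 166 to 162 bases before the start, where the printed strand reads TGACC and the other strand GGTCA. The half-site is a common 5-letter word, present in the same 250-base window of 35.4% of 33469 rat promoters. S100b held no half-site but had CCAAT boxes (CCAAT) at 246 to 242 and 135 to 131 bases before the start, and another, on the other strand at 38 to 34 bases, in the part not printed. A CCAAT box stood in 34.0% of promoters. Vim held a GC box of the factor SP1 (GGGCGG, in 30.5% of promoters) at 180 to 175 bases, a CCAAT box at 144 to 140 bases and a TATA box (TATAAA, in 12.9%) at 82 to 77 bases before the start, the first 2 on the other strand. None of the 3 windows held a full element (GGTCANNNTGACC, in 8 of 33469 promoters, 0.0239%), a STAT element (TTCNNNGAA, in 7.67%) or an AP-1 element (TGANTCA, in 6.34%). Both strands were searched, a half-site can be part of a full element, and each match is a description of letters, not of binding. Bases outside the 250-base windows were not searched, so elements farther from the start would be missed.

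Levels are given as FPKM, a fragment count divided by the length of the gene model and a depth term of the library, so that genes can be compared with each other. The depth term implied by the values was not the sum of the gene fragments. It was 17408221 against 16978830 in vehicle replicate 1 and 13421417 against 13559866 in vehicle replicate 2. The deposited values imply 13281981 to 16978830 fragments per library, with group means of 15768300 ± 1915513 fragments (SD, n = 3) for vehicle, 15683896 ± 453423 for 5% E2, 14690692 ± 1931795 for 20% E2 and 13474511 ± 284975 for 40% E2. The lowest group mean in depth was thus at 40% E2. Vehicle replicate 1 stood apart from the rest. Its root mean square difference from the other libraries averaged 0.497 on the log2 scale over the 14781 genes, against 0.427 to 0.455 for the others, and it was the library with the most fragments but with the lowest number of detected genes (17843, against 18112 to 18836). Most differences from vehicle are given with and without it, as are some of the other results that rest on it. The other markers of glia, neurons and further cell types could not be checked, because no source used here pairs the identifiers with gene names.

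The 3 transcripts stood at very different levels. Averaged over the 12 libraries, S100b had 906 FPKM and was the 32nd most abundant of 32545 genes, Vim had 477 FPKM and ranked 83rd, and Gfap had 71.6 FPKM and ranked 1149th. The order S100b, Vim, Gfap held in each of the 12 libraries. S100b stood 1.64- to 2.09-fold above Vim, while Gfap was between 0.0235 and 0.150 of the S100b level, the lowest and the highest of these ratios both coming from the 40% E2 group (replicates 2 and 3).

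**Figure D1:**
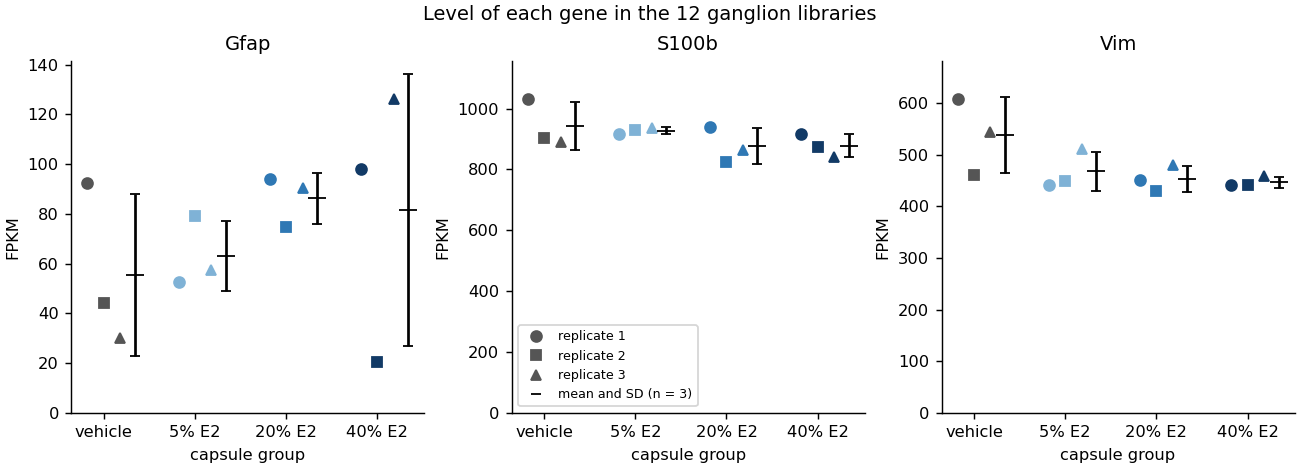
FPKM (y axis, from 0, a separate scale for each gene) of Gfap, S100b and Vim in the 4 capsule groups (x axis). Symbols are the 3 libraries of a group, and the bar beside them is the mean and SD. Gfap ranges from 20.5 to 126 FPKM within the 40% E2 group, while S100b stays between 825 and 1032 FPKM and Vim between 430 and 609 FPKM in all libraries.

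Gfap, the glial fibrillary acidic protein gene, had a higher mean in each E2 group than in vehicle, but the libraries of a group differed so much that none of these differences passed the test. In vehicle its level was 92.3, 44.2 and 30.2 FPKM in replicates 1, 2 and 3 (mean 55.6 ± 32.6 FPKM, SD, n = 3). At 5% E2 the libraries had 52.6, 78.9 and 57.3 FPKM (63.0 ± 14.0), and at 20% E2 they had 94.1, 74.6 and 90.2 FPKM (86.3 ± 10.3). Of the 4 groups, the 20% E2 libraries lay closest together in Gfap, and 1 of the 3 lay above the highest vehicle library. At 40% E2 the levels were 97.9, 20.5 and 126 FPKM (81.6 ± 54.8), so this group held both the lowest and the highest Gfap library of the study. All 4 groups overlapped. Of the 9 E2 libraries, 3 lay above all vehicle libraries and 1 lay below all of them.

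Mean Gfap was 13.3% higher than vehicle at 5% E2, 55.3% higher at 20% E2 and 46.8% higher at 40% E2. On the log2(FPKM + 1) scale, used in limma (a linear model fitted to all genes, which share information on the spread), the difference from vehicle was 0.31 ± 0.63 (SE) at 5% E2 (adjusted p = 0.949 over all genes tested). It was 0.77 ± 0.63 at 20% E2, with a 95% confidence interval from −0.64 to 2.19 (limma, adjusted p = 0.89). At 40% E2 it was 0.35 ± 0.63, with an interval from −1.07 to 1.76 (limma, adjusted p = 0.952). The share of all tested genes called at an adjusted p under 0.05 was 0% at 5% E2, 0.00677% (1 gene) at 20% E2 and 0% at 40% E2, and Gfap was not among them. These 3 comparisons share the vehicle libraries. The interval at 20% E2 holds both a fall and a rise, up to 2.19 log2 units, so the 12 libraries together do not limit the Gfap difference closely. That width depended on 40% E2 replicate 2, a library outside this comparison, through the shared estimate of the spread. Without it the difference at 20% E2 was the same and its SE was 0.355 (limma p of 0.0593, adjusted p of 0.812), and with vehicle and 20% E2 alone in the fit the SE was 0.404 (limma p of 0.108, adjusted p of 0.903).

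Single libraries set the Gfap value at 40% E2. Without 40% E2 replicate 1, 2 or 3 the log2 difference from vehicle was 0.04, 1.14 or −0.14. Without vehicle replicate 1, 2 or 3 it was 0.785, 0.262 or −0.005. The adjusted p in limma was 0.884 or more in every alternative fit of this comparison. The difference at 20% E2 stayed above 0 without each of the 12 libraries in turn and under the other settings tried (adjusted p of 0.756 or more in limma). It ranged from 0.42, without vehicle replicate 3, to 1.21, without vehicle replicate 1. Between doses, the difference was 0.46 for 20% against 5% E2 (limma, adjusted p = 0.977), 0.04 for 40% against 5% E2 (0.998) and −0.43 for 40% against 20% E2 (1). With 20% and 5% E2 alone in the fit, the SE of their difference was 0.163, against 0.627 with all 12 libraries. The limma p was then 0.0254 and the adjusted p 0.885. Across the 4 doses the slope of Gfap was 0.08 ± 0.14 log2 units per 10 percentage points of E2 (limma, adjusted p = 0.948). Without 40% E2 replicate 2 the slope was 0.28 ± 0.08 (limma p of 0.00647, adjusted p of 0.792), and without 40% E2 replicate 3 it was −0.009 (adjusted p of 0.993). The order of the group means was 20%, 40%, 5% and vehicle, and no neighbours in it differed beyond their spread.

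S100b, the calcium-binding protein gene, had group means that lay close together, and no difference passed the test. Its libraries had 1032, 904 and 890 FPKM in vehicle (942 ± 78.3 FPKM, SD, n = 3) and 915, 930 and 938 FPKM at 5% E2 (928 ± 11.5). At 20% E2 they had 940, 825 and 865 FPKM (877 ± 58.1), and at 40% E2 918, 875 and 842 FPKM (878 ± 38.2). Vehicle replicate 1 was the highest of the 12, and 4 of the 9 E2 libraries lay below every vehicle library, 2 at 20% E2 and 2 at 40% E2. No pair of groups was free of overlap.

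Mean S100b was 0.985 of the vehicle mean at 5% E2, 0.931 at 20% E2 and 0.932 at 40% E2. The log2 differences from vehicle were −0.02 ± 0.07 (SE) at 5% E2 (limma, adjusted p = 0.97), −0.10 ± 0.07 at 20% E2 (limma, adjusted p = 0.851) and −0.10 ± 0.07 at 40% E2 (limma, adjusted p = 0.869). Their 95% confidence intervals reached from −0.17 to 0.13, from −0.26 to 0.05 and from −0.25 to 0.05. These intervals are far narrower than those of Gfap, and none reaches beyond 0.26 log2 units from 0. The doses differed by −0.08 (20% against 5% E2), −0.08 (40% against 5% E2) and 0.004 (40% against 20% E2), each with an adjusted p of 0.968 or more in limma. Leaving out 1 library moved these values. The difference of 20% against 5% E2 was −0.0411 without 20% E2 replicate 2 and −0.135 without 20% E2 replicate 1. That of 40% against 5% E2 was −0.0498 without 40% E2 replicate 3 and −0.112 without 40% E2 replicate 1. The share of all tested genes called was 0% for 20% against 5% E2 and 0.00677% (1 gene) for each of the other 2 comparisons between doses. Without vehicle replicate 1 the value at 5% E2 was 0.05. At 20% and 40% E2 the direction was the same in all settings tried. The values nearest to 0, −0.04 at 20% E2 and −0.03 at 40% E2, were those without vehicle replicate 1, so much of the difference rested on that library. The group means ran from vehicle and 5% down to 40% and 20% E2, and neighbours in that order lay within their spread.

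Vim, the vimentin gene, had a lower mean in each E2 group than in vehicle, by amounts that did not pass the test over all genes. Its libraries had 609, 462 and 544 FPKM in vehicle (538 ± 73.7 FPKM, SD, n = 3), 441, 450 and 512 FPKM at 5% E2 (468 ± 38.7), 451, 430 and 481 FPKM at 20% E2 (454 ± 25.8) and 441, 441 and 459 FPKM at 40% E2 (447 ± 10.4). All 3 libraries at 40% E2 lay below the lowest vehicle library. This was the only pair of groups without overlap among the 3 genes and 6 comparisons, and 5.09% of all tested genes had 40% E2 libraries that all lay below vehicle. At 5% and at 20% E2, 2 of 3 libraries lay below all vehicle libraries, which makes 7 of the 9 E2 libraries.

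Mean Vim was 0.869 of the vehicle mean at 5% E2, 0.843 at 20% E2 and 0.830 at 40% E2. The log2 difference at 40% E2 was −0.26 ± 0.09 (SE), with a 95% confidence interval from −0.47 to −0.05. In limma its p was 0.0181 and its adjusted p 0.793, and it ranked 325th by p of 14781 genes in this comparison, in which 5.87% of all tested genes had an unadjusted p under 0.05. At 20% E2 the difference was −0.24 ± 0.09 (limma p of 0.0267, adjusted p of 0.785), where 6.07% of tested genes had an unadjusted p under 0.05. At 5% E2 it was −0.20 ± 0.09, with an interval from −0.40 to 0.01 (limma p of 0.0602, adjusted p of 0.889). The slope over the doses was −0.05 ± 0.02 log2 units per 10 percentage points (limma p of 0.048, adjusted p of 0.813), where 5.96% of tested genes had an unadjusted p under 0.05 and 0% an adjusted one. Without vehicle replicate 1 the slope was −0.03 (limma p of 0.108, adjusted p of 0.873), and leaving out each library in turn gave slopes from −0.058 to −0.031 with adjusted p from 0.724 to 0.981.

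The doses themselves lay close together for Vim. The differences were −0.04 for 20% against 5% E2, −0.06 for 40% against 5% E2 and −0.02 for 40% against 20% E2, each with an adjusted p of 0.979 or more in limma. Vehicle replicate 1 was again the highest library. Without it the difference from vehicle was −0.10 at 5% E2 (limma p of 0.262) and −0.15 at 20% E2 (limma p of 0.123). At 40% E2 it was −0.17, where limma gave a p of 0.0838 and an adjusted p of 1. Without vehicle replicate 2, the lowest vehicle library, the differences were −0.30 at 5%, −0.34 at 20% and −0.36 at 40% E2, the last with an adjusted p of 0.387, the smallest adjusted p of any of the 3 genes in any fit. The adjusted p for 40% E2 against vehicle thus ran from 0.387 to 1 over all settings. The depth was lowest at 40% E2, as given above, and its part in this difference was not tested. Vim had 10997 to 19684 fragments per library.

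**Figure D2:**
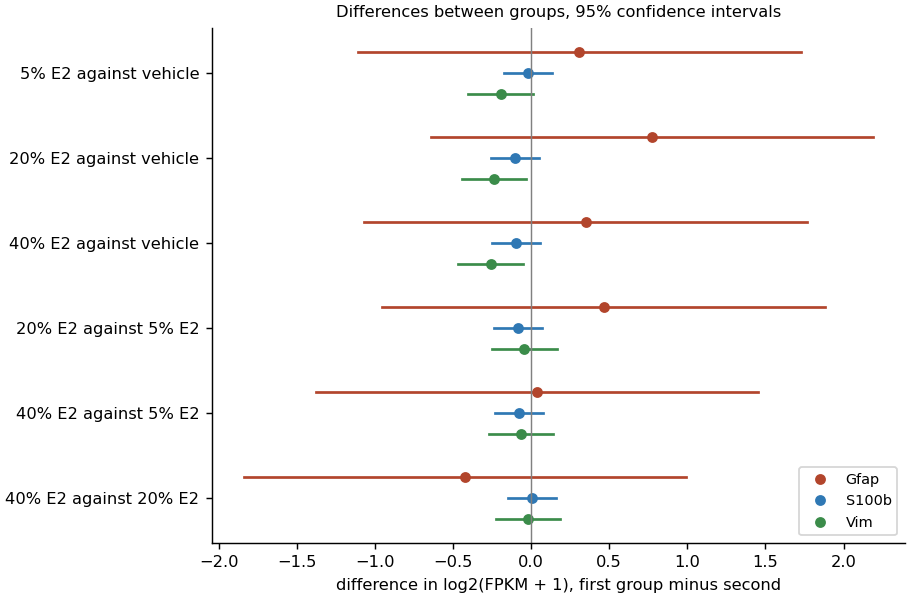
Difference in log2(FPKM + 1), first group minus second (x axis), for the 6 pairs of capsule groups (y axis). Points are limma estimates and lines their 95% confidence intervals. The Gfap intervals span 0 in all 6 comparisons and are much wider than those of S100b, and Vim has intervals below 0 at 20% and 40% E2 against vehicle, before any adjustment for the number of genes. Without vehicle replicate 1 (not shown) the limma p of Vim against vehicle was 0.123 at 20% and 0.0838 at 40% E2.

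The F-test for any difference among the 4 groups gave an adjusted p of 0.97 for Gfap, 0.964 for S100b and 0.964 for Vim (limma, unadjusted 0.684, 0.368 and 0.0651), with 0% of all tested genes called. Group membership accounted for 14.4% of the variance of Gfap, 32.1% of that of S100b and 50.7% of that of Vim on the log2 scale. The median over the tested genes was 25.3%, and 88.8% of them had a smaller share than Vim. With 4 groups of 3 libraries a share of this kind is well above 0 by construction. Without vehicle replicate 1 the F-test gave Vim a limma p of 0.303 (adjusted p of 0.99). The shares of variance were not computed without that library.

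The 3 genes also differed in how far the libraries of 1 group lay apart. The coefficient of variation (SD over mean) of Gfap was 58.6% in vehicle, 22.3% at 5% E2, 11.9% at 20% E2 and 67.1% at 40% E2. Counting error alone gives Gfap 1.72% to 2.46%, since it had 761 to 4583 fragments per library. Its highest library exceeded its lowest 3.06-fold within vehicle and 6.15-fold within 40% E2. For Vim the coefficient was 13.7%, 8.26%, 5.68% and 2.32% in the same order of groups, and for S100b 8.32%, 1.24%, 6.62% and 4.35%, with counting errors of 0.678% to 0.942% for both. Across all 12 libraries the highest exceeded the lowest 6.15-fold for Gfap, 1.42-fold for Vim and 1.25-fold for S100b.

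Set against the other genes, Gfap stood near the top of the scale of spread. Its SD within groups was 0.821 log2 units, larger than in 96.6% of the 14781 tested genes, whose median was 0.159. A large part of this value came from 40% E2 replicate 2: without it the SD was 0.479, still larger than in 90.7% of the genes. Without each of the other libraries in turn it lay between 0.752 and 0.877. High spread is common among genes of few fragments, so each gene was also compared with the 500 tested genes nearest to it in level. Their median SD was 0.104 for the neighbours of Gfap, and 1 of those 500 had a larger SD than Gfap (5 of 500 without 40% E2 replicate 2). S100b had an SD of 0.0821, below its neighbours' median of 0.105, with 345 of 500 larger. Vim had 0.124 against a median of 0.104, with 185 of 500 larger. At levels at which most transcripts of the ganglion were steady between libraries, Gfap was thus among the most variable, and S100b and Vim were not.

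**Figure D3:**
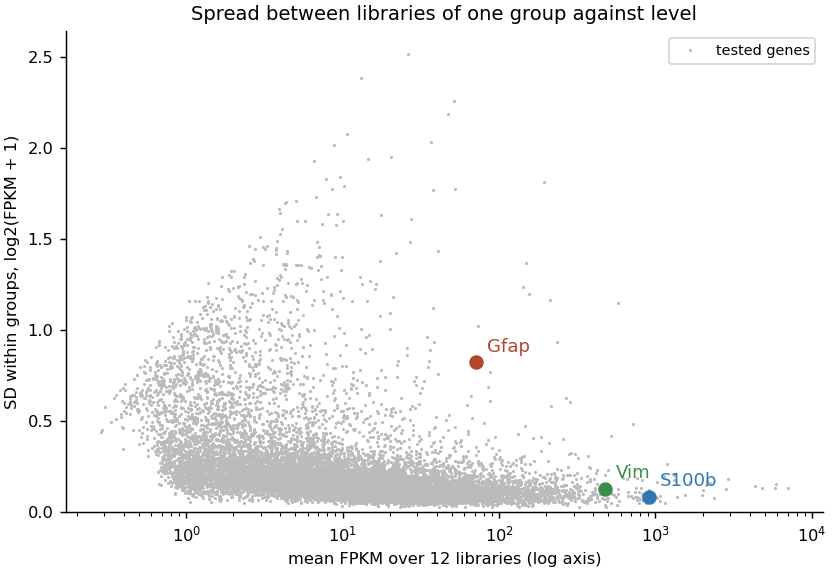
SD between libraries of a group, pooled over the 4 groups (y axis, log2 units), against mean FPKM (x axis, log scale), for all 14781 tested genes (grey) with the 3 glial genes in colour. Gfap lies at 0.821, above all but 1 of the 500 genes nearest in level, while S100b (0.0821) and Vim (0.124) lie within the main band.

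No relation between Gfap and the other 2 genes was detected. Across the 12 libraries Pearson's r of Gfap and S100b was 0.12 (permutation p = 0.712, adjusted over the 3 pairs 0.969) and Spearman's rho was 0.18 (permutation p = 0.576, adjusted 0.864). For Gfap and Vim r was −0.01 (permutation p = 0.969, adjusted 0.969) and rho 0.03 (permutation p = 0.922, adjusted 0.922). Leaving out the 2 libraries farthest from the median of Gfap on the log2 scale, vehicle replicate 3 and 40% E2 replicate 2, gave r of −0.10 and 0.08, and leaving out vehicle replicate 1 gave −0.05 and −0.27. In 40% E2 replicate 2, where Gfap was at its lowest (20.5 FPKM), S100b (875 FPKM) was the middle value of its group. Vim in that library (440.8 FPKM) was the lowest of its group, close to replicate 1 (441.3 FPKM). Within groups, on deviations from the group means, r was 0.38 (permutation p = 0.226) for Gfap and S100b and 0.30 (permutation p = 0.337) for Gfap and Vim. These permutations moved deviations between groups of unlike spread, so their p-values are approximate.

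For S100b and Vim no relation passed after adjustment either, and the size of r rested on vehicle replicate 1. Over the 12 libraries r was 0.61 (permutation p = 0.0413, adjusted 0.124) and rho 0.37 (permutation p = 0.237, adjusted 0.711). Without the libraries farthest from the median of S100b, vehicle replicate 1 and 20% E2 replicate 2, r was −0.05, and without vehicle replicate 1 alone it was 0.18. On deviations from the group means r was 0.49 (permutation p = 0.111, approximate for the same reason). All p-values here are two-sided.

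**Figure D4:**
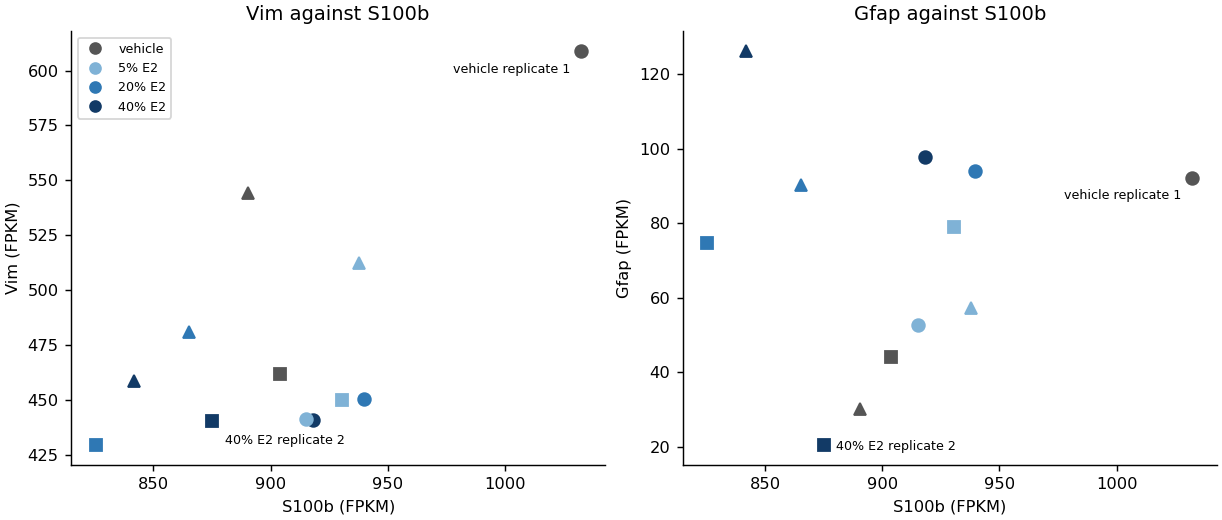
Vim (left) and Gfap (right) in FPKM on the y axes against S100b in FPKM on the x axes, with 1 point per library coloured by capsule group, symbols for replicate numbers as in the plot of levels, and axes that do not start at 0. Vehicle replicate 1 lies alone at high S100b (1032 FPKM) and Vim (609 FPKM), and 40% E2 replicate 2 is lowest in Gfap (20.5 FPKM) with S100b at 875 FPKM.

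Other transcripts followed Gfap closely from library to library. Among 9926 genes with a mean of at least 5 FPKM, the 3 with the highest r with Gfap across the 12 libraries were ENSRNOG00000031927 (r = 0.98, rho = 0.90), ENSRNOG00000004089 (r = 0.93, rho = 0.88) and ENSRNOG00000016043 (r = 0.92, rho = 0.85). These are the highest of many values and describe likeness only. ENSRNOG00000031927 had 14.0, 6.63 and 3.75 FPKM in vehicle, 8.28, 15.4 and 8.61 FPKM at 5% E2, 13.5, 9.88 and 12.6 FPKM at 20% E2 and 12.9, 2.73 and 18.6 FPKM at 40% E2, from 44 to 293 fragments per library. Its lowest and highest libraries were those of Gfap. The r with Gfap was 0.97 without 40% E2 replicate 2 and 0.99 on deviations from the group means. ENSRNOG00000004089 (6.64 to 18.3 FPKM) and ENSRNOG00000016043 (3.63 to 29.2 FPKM) were also lowest in 40% E2 replicate 2 and were highest in 5% E2 replicate 2, with r of 0.88 and 0.86 without the former library. In all, 12 of the 9926 genes (0.121%) had an r of at least 0.8 with Gfap, and 2 had a negative r of at least that size. How many unrelated genes would reach this with 12 libraries was not tested.

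**Figure D5:**
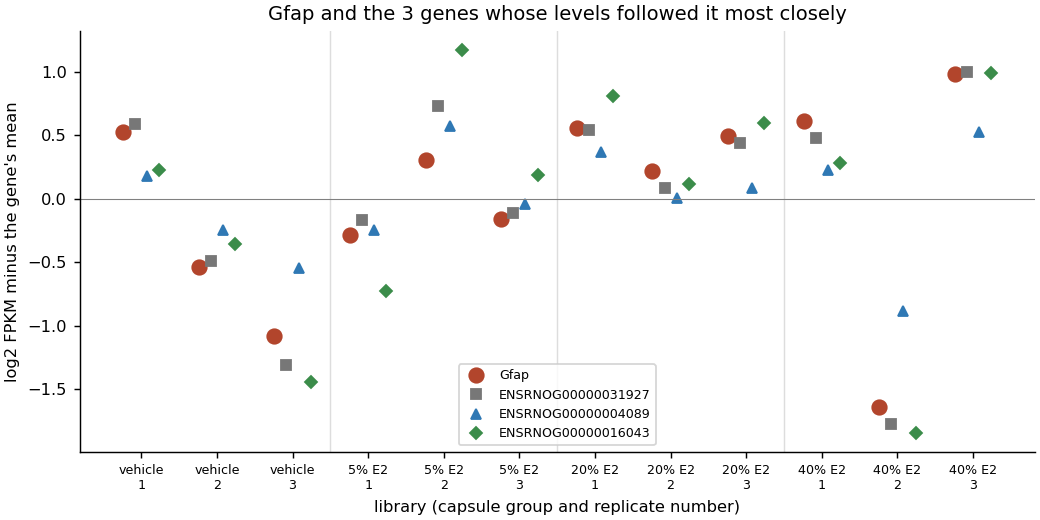
Log2 FPKM minus the gene's own mean (y axis) in each of the 12 libraries (x axis, by capsule group and replicate number, which carries no order) for Gfap and the 3 genes most like it. All 4 genes are lowest in 40% E2 replicate 2, and ENSRNOG00000031927 lies close to Gfap in nearly every library (r = 0.98).

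The genes most like the other 2 shared the high value of vehicle replicate 1. For S100b they were ENSRNOG00000019980 (r = 0.94), ENSRNOG00000002205 (r = 0.92) and ENSRNOG00000017352 (r = 0.91), each highest in that library, with r of 0.88, 0.88 and 0.83 without it. For Vim they were ENSRNOG00000012840 (r = 0.93), ENSRNOG00000016807 (r = 0.89) and ENSRNOG00000004610 (r = 0.88), again each highest in vehicle replicate 1, with r of 0.88, 0.74 and 0.72 without it. Of the 9926 genes, 75 (0.756%) had an r of at least 0.8 with S100b and 24 (0.242%) with Vim. A negative r of at least that size was found for 157 genes with S100b and 35 with Vim. No gene was among the 3 most alike for more than 1 of the glial genes.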

How the data were processed

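RNA was extracted with a Qiagen kit, and libraries were made with the NEBNext Ultra kit and sequenced on an Illumina instrument, per the labels' protocols. CASAVA, HISAT2, fastp, featureCounts and DESeq2 are listed in the submitters' processing notes, with neither versions nor roles. Which genome build, annotation and strand setting were used is not given in the sources used here, so fragments of overlapping genes cannot be told apart. The deposited values are FPKM computed by the authors. A table of the whole series with the same values was not used.

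From these values, whole fragments and gene model lengths were recovered, and a length was found for each of the 21071 genes detected in 2 or more libraries. The shortest length that brought every library within about 0.0002 of a whole number was taken. The largest deviation was thus limited by this rule and is no separate check. Recovered fragments gave depth and counting error, which cover counting only. Genes with at least 1 FPKM in at least 3 libraries (14781 of 32545) entered 1 limma-trend fit (limma 3.58.1, R 4.3.3, robust moderation) on log2(FPKM + 1), a scale that understates changes of low genes. P-values were adjusted by Benjamini-Hochberg over all genes within each comparison, with a threshold of 0.05. A separate fit gave the slope on E2 percent. Correlations used permutation tests of 100000 resamples (SciPy 1.17.1, Python 3.11.15). The fit and the recovery were tested on simulated data. No library matched another of its group within sampling noise (lowest chi-square over its degrees of freedom 6.95), which does not show that they came from separate animals.

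Named genes were the 3 members and, for each, the 3 genes with the highest r and a mean of at least 5 FPKM. Glial, filament and cell type lists given by symbol were not analysed here, because the reference table (GRCr8, 47357 genes) held 0 of the 32545 identifiers. Member names come with the identifiers by which they were chosen. Members and lists were chosen with earlier results of these data known, and the motifs, the comparison with the 500 genes nearest in level the r of 0.8, and the spread and likeness of genes without a library were chosen after the values were seen. Alternatives were another pseudocount, filters, scalings, variance models, groups, a replicate block and leaving out each library.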

Additional observations from a re-analysis of the deposited data

How the results depend on the processing

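Of 522 fits of the 3 genes under alternative settings, 0 gave an adjusted p under 0.05 (smallest 0.387). Of the 459 of these that have a direction, 19 lost it. Leaving out 1 library in turn moved the log2 difference of Gfap between −0.0437 and 0.746 at 5% E2 against vehicle, −0.14 and 1.14 at 40% E2 against vehicle, −0.449 and 0.833 between 40% and 5% E2, −0.913 and 0.369 between 40% and 20% E2, and its slope between −0.00868 and 0.281. For S100b it ran from −0.0581 to 0.0485 at 5% E2 against vehicle and from −0.0387 to 0.0548 for 40% against 20% E2. For Vim it ran from −0.0853 to 0.0241 (20% against 5% E2), −0.103 to 0.00394 (40% against 5%) and −0.0586 to 0.0225 (40% against 20%), while Vim stayed below vehicle at each dose in all settings.

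S100b for 40% against 20% E2 was −0.00247 with a common sum and −0.00142 with voom without sample weights, and for 5% E2 against vehicle it was 0.0235 with weighted voom. The correlation of Gfap and S100b was −0.05 without vehicle replicate 1. The cause of these changes was not tested.

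Over all genes, few were called under any setting. The 1 gene at 20% E2 against vehicle became 0 with pseudocount 0.1, no filter, a mean of at least 5 FPKM, the compared groups alone, unweighted voom or the replicate block, and 2 with weighted voom. The 1 gene for 40% against 5% E2 became 0 with no filter, the stricter filter, the compared groups alone, unweighted voom or moderation without the robust option, and 2 with weighted voom. The 1 gene for 40% against 20% E2 became 0 with no filter, a common sum, moderation without the robust option or the replicate block. Both voom fits called 1 gene in the F-test, and the compared groups alone called 1 at 40% E2 against vehicle. Leaving out a library in turn gave 0 to 1 gene at 5% and 40% E2 against vehicle and between 40% and 5% E2, 0 to 2 at 20% E2 against vehicle and between 40% and 20% E2, and 0 to 5 between 20% and 5% E2 and in the F-test.

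Over all tested genes no pairing by replicate number was seen: same-numbered libraries of different groups had deviations that correlated between −0.054 and 0.077. This does not settle it for single genes. At 40% E2 against vehicle the SE with a replicate block was 0.626 for Gfap, 0.06 for S100b and 0.082 for Vim. Without the block it was 0.627, 0.07 and 0.094. With the replicate block, Vim at 40% E2 against vehicle was −0.259 (limma p of 0.0108, adjusted p of 0.718, within a range of 0.387 to 1 over its settings), and no call of the 3 genes changed. Counting error alone was at most 2.46% for Gfap in any group. The part of depth in the results was not tested.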
